A study of Mus musculus with 8 samples.

Results

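The mRNAs described here encode 40 nucleolar factors that build ribosomes: subunits of RNA polymerase I, proteins of the small nucleolar ribonucleoprotein particles (snoRNPs), abundant nucleolar proteins, and assembly factors of both ribosomal subunits. They were chosen by gene name and known role, by a rule that uses no measured value of theirs but with earlier results of these data known, from a table that gives 1 poly(A) tail length per nanopore direct RNA read. A read was a member's where the table tagged its tail PASS, classed its target as mRNA and gave that gene name. Of the 13120 genes with such reads, all 40 members had reads in every library, and they took 25746 of 1926118 reads (1.34%). Undifferentiated P19 cells, a wild-type mouse embryonal carcinoma line, were exposed for 24 h or 48 h to MHY1485 (MHY), a compound used to activate the mTOR kinase, at 10 µM, or to the same amount of its solvent DMSO, with fresh medium every 24 h. Each of the 4 groups (DMSO 24 h, MHY 24 h, DMSO 48 h and MHY 48 h) had 2 libraries of poly(A) RNA, which the table numbers 21 and 23 at 24 h and 24 and 25 at 48 h. All groups share the line and the culture, and 1 line limits what the values say of other cells. The study asked how activation of mTOR acts on the mRNAs of the translation machinery and their tails. Below, values in DMSO and MHY are always given in the order of these numbers.

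Ribosomes are made in the nucleolus. RNA polymerase I transcribes the ribosomal RNA precursor there, snoRNPs guide its methylation (box C/D) and pseudouridylation (box H/ACA), and large sets of assembly factors fold and cut it into the small (40S) and large (60S) subunits. The mTOR pathway is known to raise both the synthesis of ribosomal RNA and the translation of ribosomal protein mRNAs. A poly(A) tail is added to nearly every mRNA after cleavage downstream of a hexamer, the poly(A) signal, and is then shortened in the cytoplasm, so that its length changes over the life of the molecule.

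Libraries held 178369 to 316546 reads, and the median member had 23 to 50.5 reads in a library, so that many members have a wide error. Levels are given as RPM, reads per 1000000 reads of the library after scaling by its size factor, and bare levels below are RPM. The replicate 24 library of MHY at 48 h stood apart: its median tail over all genes was 92.4 nt, against 96.8 to 103 nt in the other 7 libraries, and calls that rest on it are given with and without it. Of the 7 embryonal carcinoma markers checked (Pou5f1 leading) all had reads, at 3036 to 3967 RPM in sum. At 24 h this sum was 3744 and 3967 in DMSO and 3503 and 3588 in MHY, with no overlap of the groups. At 48 h it was 3526 and 3854 in DMSO and 3036 and 3572 in MHY, where the groups overlapped. The part of this difference in the results at 24 h was not tested. The 5 endoderm and 4 mesenchymal markers summed to at most 9.07 and 13.3 RPM, with Afp, Sox17 and Postn at 0. Of 6 neuronal markers, Dcx was at 0 and Stmn2 held most reads, and the list summed to 274 to 415 RPM at 24 h. At 48 h it summed to 328 and 296 in DMSO and to 227 and 209 in MHY, and its part in the results at 48 h was not tested.

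Since the tail is measured at the cleavage site, the 3′ ends of the reads were located first. In the most-read transcript of each member, a median of 95% of reads ended within 20 nt of the commonest end, against 91.8% over 5782 genes with at least 30 reads. The 40 nt before that end held AATAAA in 26 members, its variant ATTAAA in 6, and neither in 8 (20%, against 14.7% of all genes). The windows of 30 bases below, in 5′ to 3′ sense with coordinates of mm10 and transcripts of GENCODE, are shown for both members whose reads changed with MHY (Nop56 and Npm1), for the 3 members with the longest median tails (Gnl3, Nop10 and Nop16) and for the 3 with the shortest among those with over 100 reads (Emg1, Polr1d and Nhp2). Capitals mark AATAAA or ATTAAA.
Nop56, chr2:130279279-130279308 (+ strand): ataaaaccccAATAAAaacacaaaaccaga
Npm1, chr11:33152510-33152539 (- strand): gtgaAATAAActcagtattttAATAAAgta
Gnl3, chr14:31012433-31012462 (- strand): ttcaaAATAAAatacaagtatttgcttgca
Nop10, chr2:112262637-112262666 (+ strand): ccaggttATTAAAgatatagtgaactgaaa
Nop16, chr13:54584834-54584863 (- strand): acatgataaaggaatattttacccatgtaa
Emg1, chr6:124704381-124704410 (- strand): ttttcctataaagagttttatttcgttttt
Polr1d, chr5:147079057-147079086 (+ strand): cctAATAAAttctctcttttgtttaaacta
Nhp2, chr11:51623408-51623437 (+ strand): gatagaagtaaatgctaaggcgaaaacgtg
Each window ends at the commonest read end of the most-read transcript. Members with long tails and members with short tails are found both with and without AATAAA or ATTAAA in these letters. Other variants of the signal were not searched for.

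RPM were compared between members as they stand, since a direct RNA read is 1 molecule and is not scaled to length. Npm1 alone gave 42.0% of the members' reads and Ncl 7.80%. In the mean of the 8 libraries 28 of 40 members were under 200 RPM, and Polr1b (56 reads in all) and Rrp12 (47) were the lowest. Together the members took 1.41% and 1.36% of the reads in DMSO and 1.28% and 1.19% in MHY at 24 h, and each DMSO library exceeded each MHY library. At 48 h the shares were 1.37% and 1.35% in DMSO and 1.37% and 1.34% in MHY, and the groups overlapped, with a difference of -0.00265 percentage points. The difference at 24 h, -0.151 percentage points, was -0.0487 without Npm1 and Ncl, the 2 members with most reads, and that at 48 h was 0.0774 without them. Without Npm1 alone the members took 0.790% and 0.724% in DMSO and 0.881% and 0.805% in MHY at 48 h, with no overlap of the groups. Over the same libraries the 76 ribosomal protein mRNAs took 29.5% of reads in DMSO and 29.3% in MHY at 24 h, and 29.2% and 27.2% at 48 h (28.1% in MHY without replicate 24). In bulk RNA, fewer cells that express a gene and less RNA per cell cannot be told apart.

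**Figure D1:**
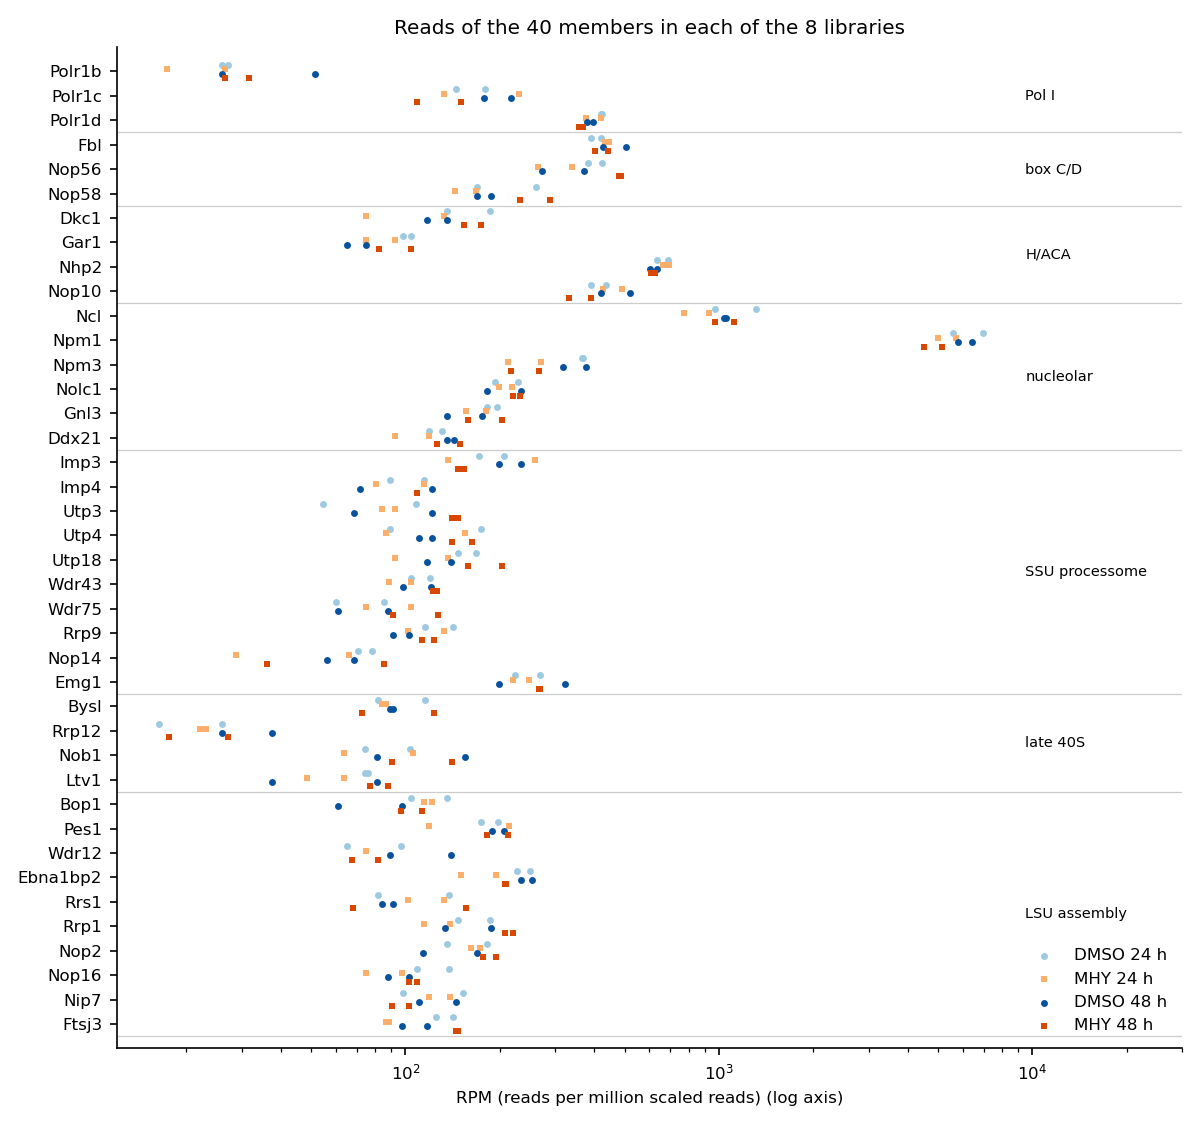
RPM (log axis) of the 40 members, ordered by role, with 1 point per library and colours for the 4 groups. Npm1 stands above all others at 4495 to 6949 RPM, and the 2 points of MHY at 48 h for Nop56 lie to the right of the other 6.

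Reads of 38 members could be tested (limma voom with all 8 libraries and 4116 genes; Polr1b and Rrp12 fell under the filter of 10 reads in 2 libraries). At 24 h no member was called at an adjusted p under 0.05, against 0.0486% of all genes. At an unadjusted p under 0.05 there were 5 members (4.47% of all genes), and 7 with limma trend, which also called none. At 48 h 2 members were called: Nop56 rose and Npm1 fell (1 of 38 each way, where 0.413% of all genes rose and 1.31% fell; 1.72% in either direction), and 11 members passed an unadjusted p under 0.05 (12.3% of all genes). The effect at 48 h minus that at 24 h was called for 1 member, Nop56 (0.34% of all genes, 0.0486% in its direction; 9 members and 6.63% of genes unadjusted). The median change of the 38 members was -0.14 on the log2 scale at 24 h and 0.15 at 48 h, against -0.02 at both times over all genes. By sign, 16 members were lower with MHY at 24 h and higher at 48 h (23.3% of all genes), 4 the reverse (22.1%), 9 lower at both (29.4%) and 9 higher at both (25.2%). Each time has its own controls, and each sign carries the error of 2 libraries a group. Scaling to total reads shifted the median of all genes at 48 h by 0.12 and left 29 members higher with MHY, against 25 here and 23 with the upper quartile. At 24 h 15 and 5 were higher under these scalings, against 13. At 24 h MHY was lower in each library than in any of DMSO for 15 of the 38 members (18.9% of all genes) and above for 1 (15.7%). At 48 h they lay above for 13 (18.6%) and below for 9 (21.3%).

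**Figure D2:**
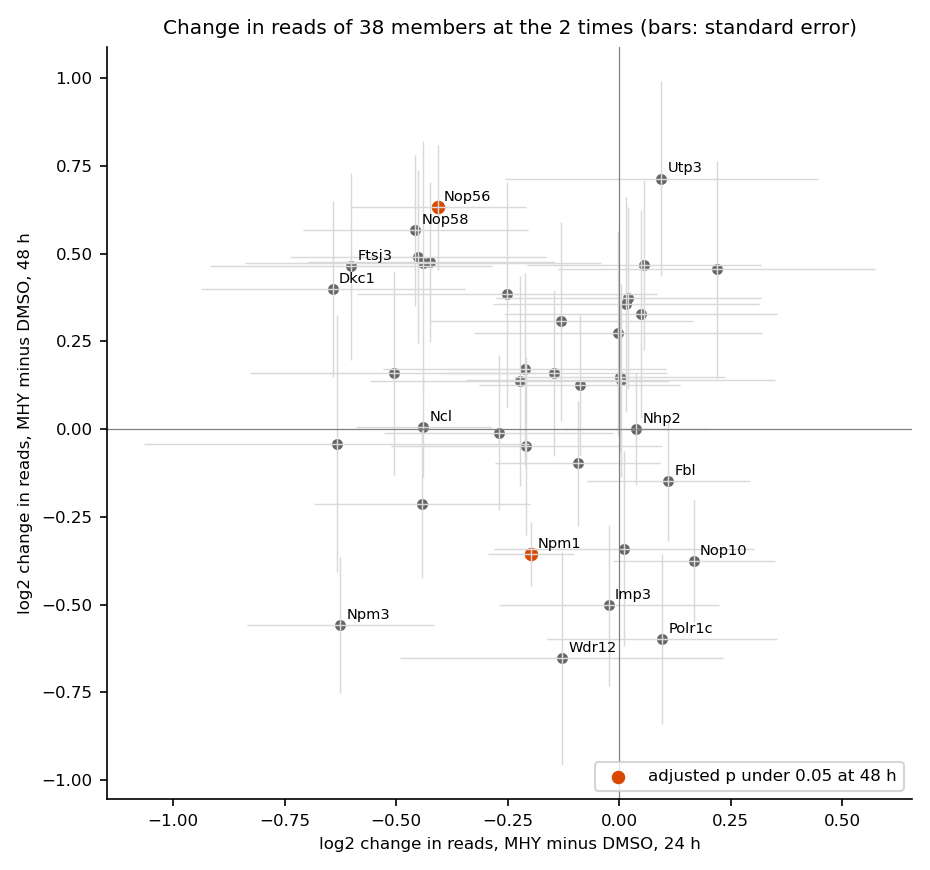
Fitted log2 change in reads (MHY minus DMSO) at 24 h on the x axis and at 48 h on the y axis for the 38 members tested, with standard errors as bars. Nop56 and Npm1 (orange) are the 2 members called at 48 h, and the upper left field, lower at 24 h and higher at 48 h, holds 16 members.

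The box C/D proteins form the snoRNP that methylates ribosomal RNA, and their sum was 941 and 1105 RPM in DMSO and 954 and 842 in MHY at 24 h, where the groups overlapped. At 48 h it was 983 and 946 RPM in DMSO and 1179.6 and 1156 in MHY, the higher values. Nop56, a core protein of the particle, had 381 and 424 in DMSO and 340.2 and 265 in MHY at 24 h. At 48 h it had 370.0 and 273 in DMSO and 488 and 480.5 in MHY, so that both MHY libraries lay above the other 6. Nop56 rose at 48 h by 0.63 ± 0.18 (log2, SE), with an adjusted p of 0.0288. Its change at 24 h was -0.41 ± 0.20 (adjusted p 0.958), and the difference between the effects was 1.04 ± 0.27 (adjusted p 0.0369). The change at 48 h was 0.39 (adjusted p 0.657) without replicate 25 of DMSO, 0.62 (adjusted p 0.326) without replicate 24 of MHY, 0.61 (adjusted p 0.161) with limma trend and 0.54 (adjusted p 0.063) when scaled to the upper quartile of reads. The difference between the times lost its call without replicate 23 of DMSO, 21 or 23 of MHY, 25 of DMSO or 24 of MHY, at 0.80 to 1.24 (adjusted p 0.0574 to 0.618). That call was also lost at a mapping quality of at least 10 (adjusted p 0.12) and at a barcode confidence of at least 0.9 (adjusted p 0.0602). The same held with no filter on low counts (adjusted p 0.0597) and with limma trend (adjusted p 0.116). Within the 2 sequencing runs of 48 h, the log2 ratios were 0.62 and 0.75, and within the 3 runs of 24 h they were -0.53, -0.50 and 0.0018. The runs of each time hold the same replicates, so they are not further biological replicates.

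Nop58, the paralogue that pairs with Nop56 in the particle, had 169 and 261 in DMSO and 168 and 144 in MHY at 24 h and 187 and 169 in DMSO and 288 and 231 in MHY at 48 h. Its groups did not overlap at either time, though the nearest values at 24 h were 169 and 168, and neither change was called (-0.46 ± 0.25, adjusted p 0.958, and 0.57 ± 0.22, adjusted p 0.187). Fbl, the methyltransferase of the same particle, had 392 and 421 in DMSO and 446 and 433 in MHY at 24 h and 426 and 504 in DMSO and 403 and 444 in MHY at 48 h. Its changes were 0.11 ± 0.18 (adjusted p 0.992) and -0.15 ± 0.17 (adjusted p 0.784), opposite in sign to those of Nop56 and Nop58.

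Most Nop56 reads came from a pair of transcripts whose annotated 3′ ends lie close together, and 3 others had 20 to 30 reads each. The 12-exon mRNA (1877 nt, chr2:130274430-130279313, + strand) held 543 of the 742 reads, and a 5-exon transcript (946 nt, chr2:130277157-130279278) held 119. Of these 119 reads, 118 began inside Gm23187, an annotated snoRNA gene of 86 nt (chr2:130277195-130277280), at a median of 15 nt after its first base. Its first 30 bases are shown because they are where the short reads start, with the bases from the median start onward in capitals.
Gm23187, chr2:130277195-130277224 (+ strand): gattacaatgatggcTGACCAGGGCAACCT
In human cells a box C/D snoRNA inside the NOP56 pre-mRNA is known to take part in the control of that gene's own splicing. The 12-exon mRNA had 316 and 261 RPM in DMSO and 247 and 179 in MHY at 24 h. At 48 h it had 244 and 189 in DMSO and 412 and 354 in MHY. In a fit over 4104 transcripts, added after the values had been seen, it rose by 0.88 ± 0.20 at 48 h (adjusted p 0.00317), and the effect at 48 h minus that at 24 h was 1.27 ± 0.30 (adjusted p 0.0231). The rise at 48 h was 0.75 (adjusted p 0.198) without replicate 24 of MHY and 0.67 (adjusted p 0.352) without replicate 25 of DMSO. The difference between the effects lost its call without replicate 21 of DMSO, 21 or 23 of MHY, 25 of DMSO or 24 of MHY, at 1.06 to 1.53 (adjusted p 0.0819 to 0.51), and was 1.15 (adjusted p 0.164) without the last of these. The 5-exon transcript had 70.2 and 61.8 in DMSO and 44.1 and 49.9 in MHY at 48 h, a change of -0.46 ± 0.39 (adjusted p 0.685). At 24 h its values, 27.2 and 123 in DMSO and 57.4 and 46.2 in MHY, overlapped, and the widest gap was between the DMSO replicates. The 12-exon mRNA made up 65.8% and 69.0% of Nop56 reads in DMSO and 84.3% and 73.6% in MHY at 48 h. At 24 h it made up 82.9% and 61.4% in DMSO and 72.7% and 67.4% in MHY, where both MHY values lay between those of DMSO. The difference between the changes of these transcripts was not tested.

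**Figure D3:**
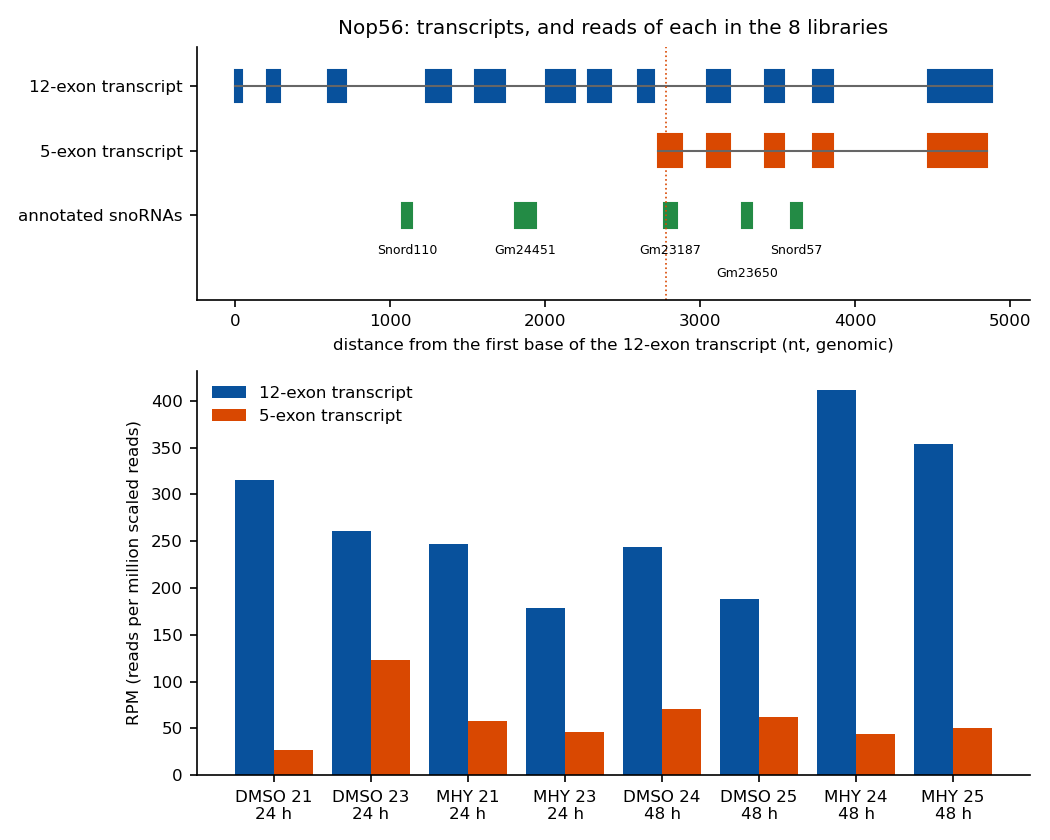
Top, exons of the 12-exon and 5-exon Nop56 transcripts and annotated snoRNAs by distance from the first base of the 12-exon transcript, with a dotted line at the median first base of reads on the 5-exon transcript, which falls in Gm23187. Bottom, RPM of both transcripts in each library as bars: the 12-exon mRNA is highest in the 2 MHY libraries of 48 h.

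Annotated snoRNA genes lie within 6 members, on the same strand: Nop56 (5), Nop58 (4), Ncl (3), Gnl3 (3), Wdr43 (3) and Dkc1 (1). That is 15% of the members, against 2.44% of 5730 protein-coding genes with at least 30 reads. This grouping was made after the values had been seen. The hosts' fitted changes were below 0 in 6 of 6 at 24 h (median -0.42) and above 0 in 6 of 6 at 48 h (median 0.29), where 47.3% and 48.5% of all genes were above 0, and of these changes only that of Nop56 at 48 h was called. Over the alternatives the hosts' median ran from -0.56 to -0.27 at 24 h and from 0.19 to 0.40 at 48 h. Ncl, at 0.01 ± 0.14 with overlapping groups, was barely above 0 at 48 h. Its change was -0.09 when scaled to the upper quartile, -0.0029 with limma trend, -0.0089 without replicate 24 of DMSO and -0.10 without replicate 24 of MHY, which left 5 of 6 above 0. Of the 32 other tested members, 13 were higher at 24 h and 19 at 48 h (medians -0.09 and 0.14). The 112 tested snoRNA hosts outside the list were higher in 38.4% of cases at 24 h and in 31.2% at 48 h, with a median of -0.17 at 48 h. Any ribosomal protein genes among these hosts were not set aside. Of all 76 ribosomal protein genes, 0 were above 0 at 48 h, and their part in the hosts' values was not tested.

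Among the abundant nucleolar proteins, Npm1 (nucleophosmin, a histone and ribosome chaperone, and the 1 member on the study's list of mRNAs with a 5′-terminal oligopyrimidine, TOP) had 6949 and 5597 in DMSO and 5725 and 4996 in MHY at 24 h. At 48 h it had 5779 and 6397 in DMSO and 4495 and 5163 in MHY, with no overlap of the groups. Npm1 fell at 48 h by 0.36 ± 0.09 (log2, SE; adjusted p 0.0123), and its change at 24 h was -0.20 ± 0.10 (adjusted p 0.958). Without replicate 24 of MHY at 48 h the change was -0.24 (adjusted p 0.633), and without replicate 25 of DMSO it was -0.27 (adjusted p 0.499). It was -0.35 (adjusted p 0.0621) without replicate 23 of DMSO at 24 h, -0.35 (adjusted p 0.0914) at a barcode confidence of at least 0.9, -0.34 (adjusted p 0.166) with limma trend, and -0.34 (adjusted p 0.0849) when only the 4 libraries of 48 h were fitted. Within the 2 runs of 48 h, which hold the same replicates, the log2 ratios were -0.22 and -0.24, on RPM of the run. In the same fit the ribosomal protein mRNAs had a median change of -0.24 at 48 h, with 0 of 76 above 0 and 5 called lower, against 48.5% of all genes above 0 and 1.31% called lower. Without replicate 24 of MHY their median was -0.14, with 8 above 0 and 0 called, and without replicate 25 of DMSO it was -0.17, with 2 above 0 and 0 called. Without replicate 25 of MHY, 31 were called lower, and 2 to 4 were without each of the other 5 libraries. The most-read Npm1 transcript (8795 of 10811 reads) changed by -0.38 ± 0.09 (adjusted p 0.00813), or -0.25 (adjusted p 0.676) without replicate 24 of MHY and -0.30 (adjusted p 0.357) without replicate 25 of DMSO, and the next (1597 reads) by -0.08 ± 0.14 (adjusted p 0.881).

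Npm3, a small relative of Npm1, had 365 and 368 in DMSO and 212 and 271 in MHY at 24 h and 318 and 377 in DMSO and 218 and 267 in MHY at 48 h. It lay lower in both MHY libraries at both times, with changes of -0.63 ± 0.21 (adjusted p 0.667) and -0.56 ± 0.19 (adjusted p 0.117), and was not called. Scaled to the upper quartile of reads instead, its change at 48 h was -0.66 (adjusted p 0.0256). Ncl (nucleolin, an RNA-binding protein of the nucleolus) had 974 and 1310.0 in DMSO and 773 and 929 in MHY at 24 h, where the MHY values were the lower ones (-0.44 ± 0.15, adjusted p 0.75). Over the alternatives this change ran from -0.71 (barcode confidence of at least 0.9) to -0.21 (without replicate 23 of DMSO). At 48 h Ncl had 1035 and 1057 in DMSO and 1118 and 975 in MHY, a change of 0.01 ± 0.14 (adjusted p 0.992), and the groups overlapped. Nolc1, Gnl3 (nucleostemin) and the helicase Ddx21 had 92.3 to 234 RPM in the 8 libraries, and none of their 6 changes was called (adjusted p 0.854 to 1.00).

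The box H/ACA proteins bind the guide RNAs of pseudouridylation. Nhp2 had 686 and 636 in DMSO and 663 and 692 in MHY at 24 h and 632 and 605 in DMSO and 627 and 607 in MHY at 48 h, with overlapping groups at both times. Its changes were 0.04 ± 0.16 (adjusted p 1.00) and 0.00 ± 0.16 (adjusted p 1.00). Nop10, the smallest protein of the particle, had 435 and 391 in DMSO and 490.4 and 427 in MHY at 24 h and 519.8 and 419.5 in DMSO and 332 and 389.8 in MHY at 48 h, and only at 48 h did the groups not overlap (-0.38 ± 0.17, adjusted p 0.341). Dkc1 (dyskerin, the pseudouridine synthase) had 136 and 186 in DMSO and 133 and 74.997 in MHY at 24 h and 136 and 117 in DMSO and 174 and 154 in MHY at 48 h. Its changes, -0.64 ± 0.30 (adjusted p 0.958) and 0.40 ± 0.25 (adjusted p 0.54), differed by 1.04 ± 0.39 (adjusted p 0.415) with no overlap at either time. Gar1 followed the same order of groups at 65.0 to 104 RPM, with changes of -0.25 ± 0.34 and 0.38 ± 0.32 (adjusted p 0.987 and 0.67).

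Of the RNA polymerase I subunits, Polr1d, which is shared with RNA polymerase III, had 424 and 421 in DMSO and 376 and 421 in MHY at 24 h and 379 and 397 in DMSO and 368 and 358 in MHY at 48 h. Its changes were -0.09 ± 0.19 (adjusted p 0.992) and -0.10 ± 0.18 (adjusted p 0.887). Polr1c, shared in the same way, had 179.6 and 145 in DMSO and 133 and 231 in MHY at 24 h and 178 and 218 in DMSO and 150.03 and 109 in MHY at 48 h, with changes of 0.10 ± 0.26 (adjusted p 0.992) and -0.60 ± 0.24 (adjusted p 0.232). The groups of both genes were apart only at 48 h, with MHY lower. Polr1b, the second-largest subunit, was read too rarely to test, at 17.3 to 51.5 RPM.

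The small-subunit processome assembles on the nascent precursor. Emg1, a methyltransferase of the small subunit, had 223 and 268 in DMSO and 221 and 248 in MHY at 24 h and 323 and 198 in DMSO and 268 and 267 in MHY at 48 h, with overlapping groups at both times (-0.09 ± 0.22 and 0.13 ± 0.20, adjusted p 0.992 and 0.868). Imp3, a U3 snoRNP protein, had 207 and 171 in DMSO and 137 and 259.6 in MHY at 24 h and 234 and 198 in DMSO and 147 and 154 in MHY at 48 h, where MHY was lower in both libraries (-0.50 ± 0.23, adjusted p 0.337; -0.02 ± 0.25, adjusted p 1.00 at 24 h). Utp18 had 147 and 167 in DMSO and 137 and 92.3 in MHY at 24 h and 117 and 139.8 in DMSO and 203 and 159 in MHY at 48 h, with groups apart at both times and in opposite order (-0.45 ± 0.29 and 0.49 ± 0.25, adjusted p 0.958 and 0.392). Of the 10 processome members, 3 were higher with MHY at 24 h and 8 at 48 h, with medians of -0.06 and 0.29, and none was called (47.3% and 48.5% of all genes were higher, and 0.0486% and 1.72% were called). The 7 others (Imp4, Utp3, Utp4, Wdr43, Wdr75, Rrp9 and Nop14) lay between 28.8 and 174 RPM, and Utp3 had the widest change among them at 48 h (0.71 ± 0.28, adjusted p 0.199).

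Late 40S factors act in maturation and export of the small subunit. Nob1, the endonuclease that makes the 3′ end of 18S ribosomal RNA, had 103 and 74.4 in DMSO and 106 and 63.5 in MHY at 24 h and 155 and 81.3 in DMSO and 141 and 90.7 in MHY at 48 h. Bysl had 81.6 and 115 in DMSO and 83.9 and 86.5 in MHY at 24 h and 89.0 and 91.1 in DMSO and 124 and 72.5 in MHY at 48 h, and Ltv1 had 76.2 and 74.4 in DMSO and 48.6 and 63.5 in MHY and 37.5 and 81.3 in DMSO and 88.2 and 77.1 in MHY. Apart from Ltv1 at 24 h the groups overlapped, and the changes, from -0.44 to 0.47, had adjusted p of 0.617 to 1.00. Rrp12 had 16.3 to 37.5 RPM and was not tested.

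Among the large-subunit factors, Ebna1bp2 had 250.3 and 227 in DMSO and 194 and 149.99 in MHY at 24 h and 253 and 234 in DMSO and 209 and 209 in MHY at 48 h, lower with MHY at both times (-0.44 ± 0.24 and -0.21 ± 0.21, adjusted p 0.958 and 0.729). Pes1, which forms a complex with Bop1 and Wdr12, had 174 and 197 in DMSO and 119 and 213 in MHY at 24 h and 206 and 189 in DMSO and 182 and 213 in MHY at 48 h (-0.27 ± 0.26 and -0.01 ± 0.22, adjusted p 0.987 and 0.991). For these partners the changes at 48 h were 0.36 ± 0.31 for Bop1 and -0.65 ± 0.30 for Wdr12 (adjusted p 0.682 and 0.344). Rrp1 had 147 and 186 in DMSO and 115 and 138 in MHY at 24 h and 187 and 133 in DMSO and 221 and 209 in MHY at 48 h, apart at both times in opposite order (-0.42 ± 0.28 and 0.48 ± 0.23, adjusted p 0.958 and 0.353). Of its 329 reads, 156 (47.4%) were assigned to a transcript annotated as a target of nonsense-mediated decay. Of the 10 members of this group 4 were higher with MHY at 24 h and 6 at 48 h, with medians of -0.20 and 0.24, and none was called, against the same shares of all genes as above (47.3% and 48.5% higher, 0.0486% and 1.72% called). Ftsj3, a methyltransferase-like factor, was apart at both times (-0.60 ± 0.32 and 0.46 ± 0.27, adjusted p 0.958 and 0.484). Rrs1, Nop2, Nop16 and Nip7 made up the rest, at 68.0 to 194 RPM.

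A wider list of 116 other ribosome biogenesis genes had 94 that could be tested. None was called at 24 h (0.0486% of all genes; 2 of the 94 and 4.47% of all genes at an unadjusted p under 0.05). At 48 h 1 was called, and it rose (1.72% of all genes in either direction; 9 of the 94 and 12.3% of all genes unadjusted). This was Znhit6, an assembly factor of box C/D snoRNPs. It had 65.3 and 37.2 RPM in DMSO and 53.0 and 11.5 in MHY at 24 h, and 23.4 and 32.5 in DMSO and 85.3 and 95.2 in MHY at 48 h. Its change at 48 h was 1.56 ± 0.45 (adjusted p 0.0356). The call was lost when any 1 library of 48 h, or replicate 23 of MHY at 24 h, was left out, with changes of 1.41 to 1.82 (adjusted p 0.0507 to 0.412), and the change was 1.66 (adjusted p 0.188) without replicate 24 of MHY. Of the 94 genes 38 were higher with MHY at 24 h and 60 at 48 h, with medians of -0.10 and 0.10, where 47.3% and 48.5% of all genes were higher, with a median of -0.02 at both times.

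Between 48 h and 24 h, over both treatments, no member was called in reads (0.875% of all genes; 0 members and 9.06% of genes unadjusted; limma trend also called none, with 1 unadjusted). The times were sequenced in different runs, so time and run cannot be told apart.

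Tails of the members were shorter at the median than those of other mRNAs. Pooled over members, the median tail was 94.3 and 98.4 nt in DMSO and 94.3 and 97.1 nt in MHY at 24 h, and 93.5 and 92.5 nt in DMSO and 90.2 and 95.8 nt in MHY at 48 h. Relative to all other mRNAs (ribosomal protein mRNAs aside) it differed by -9.64 to -6.03 nt, and was lower in every library, and above that of ribosomal protein mRNAs in 6 of 8 libraries. Without Npm1 it was above ribosomal protein mRNAs in 8 of 8, by 1.48 to 9.40 nt. Reads with tails under 30 nt (<30-nt) were more common among the members than in either set. Their share was 3.82% and 4.97% in DMSO and 3.82% and 4.30% in MHY at 24 h, and 5.13% and 4.81% in DMSO and 6.84% and 5.84% in MHY at 48 h. In ribosomal protein mRNAs it ran from 2.00% to 4.47%, and in other mRNAs from 2.201% to 4.41%. The members' share exceeded that of ribosomal protein mRNAs by 1.69 to 2.76 percentage points in 8 of 8 libraries, and that of other mRNAs by 1.41 to 2.51 points. Within each of the 5 sequencing runs the order held in all 4 libraries of the run, though the runs of a time hold the same replicates. Without Npm1 the gap to other mRNAs was 1.18 to 2.59 points. Tails of 30 to 90 nt (~60-nt) made up 39.5% to 43.7% of the members' reads over the 8 libraries, 35.6% to 41.0% of those of other mRNAs and 43.2% to 51.5% of those of ribosomal protein mRNAs.

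**Figure D4:**
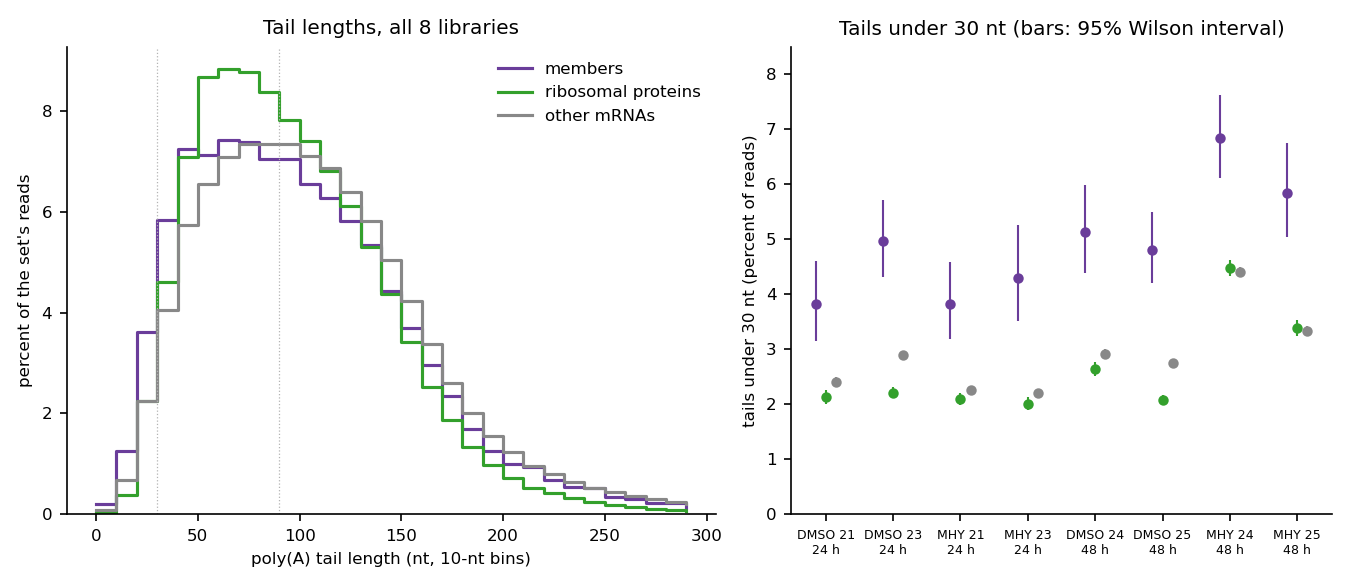
Left, distribution of tail lengths (percent of reads per 10-nt bin) of the members, ribosomal protein mRNAs and other mRNAs over all libraries, with dotted lines at the class bounds of 30 and 90 nt. Right, percent of tails under 30 nt in each library with 95% Wilson intervals: the members lie above the other sets in all 8 libraries.

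With MHY the members' <30-nt share was lower by 0.334 points at 24 h, within the replicates' spread (SD 0.818 in DMSO, n = 2), and higher by 1.36 points at 48 h, where the MHY values were the higher ones. Other mRNAs changed by -0.421 and 1.04 points and ribosomal protein mRNAs by -0.118 and 1.58 points over the same libraries. Without single libraries the members' difference at 24 h ran from -0.912 (without replicate 21 of DMSO) to 0.245 points (without replicate 23 of DMSO). That of other mRNAs then ran from -0.667 to -0.175 points and that of ribosomal protein mRNAs from -0.165 to -0.0717. Replicate 24 of MHY had the highest share in all 3 sets, and without it the difference at 48 h was 0.862 points for the members, 0.494 for other mRNAs and 1.04 for ribosomal protein mRNAs. The pooled ~60-nt share differed by 0.602 points at 24 h and -1.58 at 48 h, and the median tail by -0.60 and 0.025 nt, and the groups overlapped in both measures at both times. Without single libraries the ~60-nt difference ran from -1.18 (without replicate 23 of DMSO) to 2.39 points (without replicate 21 of DMSO) at 24 h, and from -2.95 (without replicate 24 of MHY) to -0.201 (without replicate 25 of MHY) at 48 h. Over the same omissions the median tail difference ran from -2.64 to 1.44 nt at 24 h and from -2.75 (without replicate 25 of MHY) to 2.80 nt (without replicate 24 of MHY) at 48 h. At 48 h the ~60-nt difference was 0.322 points without Npm1 and Ncl and 1.01 with each gene counted equally, and the median tail then differed by -2.86 nt. With 2 libraries against 2 an exact permutation test can give no p below 0.333, so none is given. These intervals and shares cover counting error only.

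Single members were fitted with limma for 36 genes with at least 10 reads in every library, out of 1949 genes. No member was called for any tail measure, with MHY at either time, in the difference of the effects or between the times. Of all genes, 0%, 0.359%, 0% and 0% were called in these 4 comparisons for the <30-nt share, 0%, 0.257%, 0% and 1.13% for the ~60-nt share, and 0%, 0.564%, 0% and 1.23% for the median tail. At an unadjusted p under 0.05 the <30-nt share gave 2 members at 24 h (5.64% of all genes), 3 at 48 h (10.6%), 2 in the difference (8.52%) and 1 between the times (9.54%). The ~60-nt share gave 4 members at 24 h (4.87% of all genes), 3 at 48 h (6.16%), 4 in the difference (3.54%) and 0 between the times (9.70%). The median tail gave 0 members at 24 h (3.54% of all genes), 2 at 48 h (8.47%), 1 in the difference (4.36%) and 2 between the times (11.03%). The median of the 36 changes in the log2 odds of a <30-nt tail was 0.30 at 48 h, against 0.41 over all genes, and that of the log2 median tail was -0.05, against -0.04.

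Npm1, with the most reads and so the smallest error, had a median tail of 90.8 and 94.8 nt in DMSO and 90.6 and 90.7 nt in MHY at 24 h, and of 88.9 and 85.8 nt in DMSO and 88.0 and 91.0 nt in MHY at 48 h. Its <30-nt share was 4.07% and 4.45% in DMSO and 4.24% and 4.50% in MHY at 24 h. At 48 h the share was 5.67% and 4.63% in DMSO and 7.85% and 5.71% in MHY, a change of 0.48 ± 0.18 in log2 odds (adjusted p 0.385). Imp3 had the lowest adjusted p of any member for the <30-nt share at 48 h (0.335). Its shares were 4% and 0% of 50 and 61 reads in DMSO and 10% and 8.82% of 50 and 34 reads in MHY. Over all 8 libraries, those of 24 h included, it had 15 such reads.

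Over all libraries, members ranged from 74.7 nt (Rrp12, 47 reads) to 125 nt (Gnl3) in median tail. The median over members was 96.7 nt, against 105 nt over 5842 genes with at least 30 reads and 92.4 nt over ribosomal protein genes, and 29 of 40 members lay below the median gene. Gnl3, Nop10 (117 nt) and Nop16 (116 nt) had the longest tails, and Emg1 (83.1 nt), Polr1d (83.5 nt) and Nhp2 (87.1 nt) the shortest among members with over 100 reads. Among the partners of the box H/ACA snoRNP, Nop10 stood at the upper end and Nhp2 at the lower. The <30-nt share was above the median gene's 2.91% in 32 of 40 members. It was highest in Nob1 (8.5%, 95% Wilson interval 5.37% to 13.2%), Nop58 (8.40%, 6.07% to 11.5%) and Nop56 (7.82%, 6.10% to 9.97%), and lowest in Nop16 (0.5%, 0.0883% to 2.78%), Nop10 (1.61%, 0.941% to 2.73%) and Polr1b (0 of 56 reads, for which 3 reads would be 5.36% and the upper Wilson limit is 6.42%). Without replicate 24 of MHY at 48 h, the highest were Ebna1bp2 (8.02%), Utp3 (7.89%) and Nob1 (7.24%), with Nop58 at 7.17% and Nop56 at 6.08%, and 32 of 40 members were above the median gene, then at 2.63%.

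**Figure D5:**
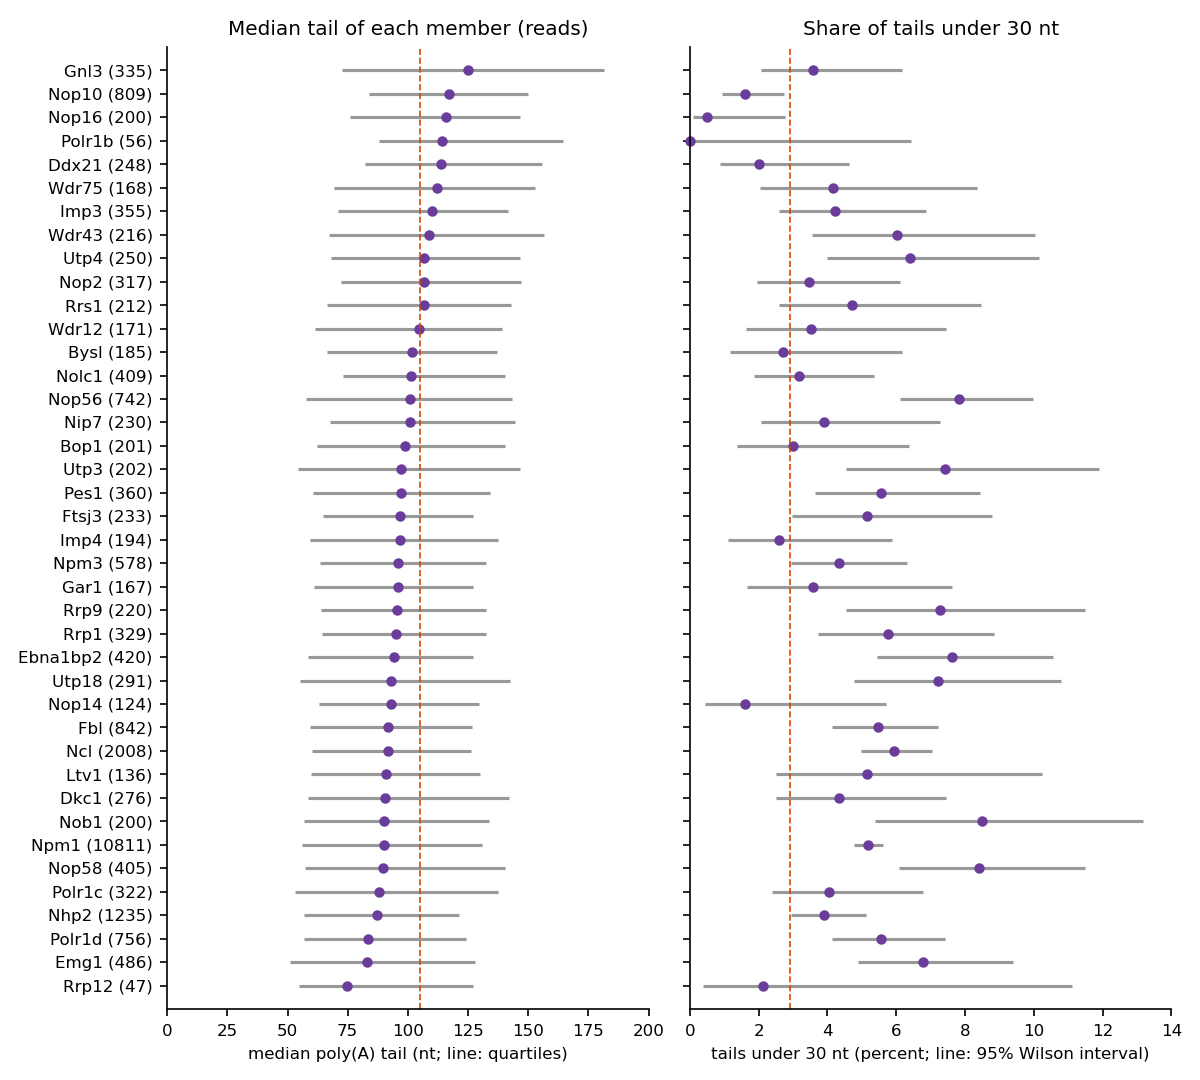
Median poly(A) tail in nt with quartiles (left) and percent of tails under 30 nt with 95% Wilson intervals (right) for each member, with its reads in parentheses; dashed lines mark the medians over 5842 genes. Points of 29 members lie left of the line for the median tail and those of 32 right of the line for tails under 30 nt.

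Of the 58 <30-nt tails of Nop56, 56 were on its 12-exon mRNA, or 56 of 543 reads (10.3%, interval 8.03% to 13.2%), which had a median tail of 94.3 nt. Without replicate 24 of MHY at 48 h it was 33 of 403 reads (8.19%). The 5-exon transcript, whose reads begin in the snoRNA shown above, had 0 in 119 reads, for which 3 reads would be 2.52% and the upper Wilson limit is 3.13%, and a median of 119 nt. The 2 most-read Npm1 transcripts had 5.17% and 5.197% of <30-nt tails, and the 2 Polr1d transcripts had 5.12% and 6.88%. By role, the share of <30-nt tails was highest for the box C/D proteins (6.94%) and lowest for the box H/ACA proteins (3.18%), or 5.98% and 3.33% without replicate 24 of MHY, and the median tail ran from 86.8 nt for the RNA polymerase I subunits to 99.96 nt for the large-subunit factors.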

How the data were processed

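P19 poly(A) RNA was sequenced by the authors on Nanopore R9 flow cells as direct RNA. The authors called bases with Guppy, assigned barcodes with Deeplexicon, aligned reads with minimap2 2.20 to mm10 transcripts and estimated tails with Nanopolish. In the deposited table each line is 1 alignment, and tail length (nt), mapping quality and read rate are treated as scores. Barcode confidence is a fraction, also as deposited.

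Alignments with the PASS tag and class mRNA were kept, 1 per read and transcript, without mitochondrial genes and pseudogenes, and those of the 40 genes were counted (178369 to 316546 reads per library in all). The deposited condition names give the group of each library but not which replicate sample it is, and those with no time in the name were taken as 24 h, the other time in the labels. Reads per gene (at least 10 in 2 libraries) were fitted with limma voom 3.58.1 in R 4.3.3, with median-of-ratios size factors. limma estimated 1 spread for all genes in this fit, so a gene's own spread between replicates had next to no weight. Tails were fitted with limma on log2 odds of a class (0.5 read added to each side) or log2 medians, weighted by reads, in genes with 10 reads in all 8 libraries. p-values were adjusted by Benjamini-Hochberg over all genes, with a threshold of 0.05. The study's methods call the 2 libraries of each group biological replicates. The p-values rest on the spread between replicates as limma pooled it over genes. For reads they do not measure the spread of the single gene. The fits were tested on simulated data with known changes.

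Members called, and the 3 with most reads in each role, were given in full. The members and lists were chosen with earlier results of these data known. Counts per transcript, the snoRNA host grouping, the fits without single libraries for transcripts and Znhit6, and the tail shares of single members without replicate 24 of MHY were added after the values had been seen. Coordinates are from a GENCODE annotation of the same assembly. Alternatives varied read filters, scaling, test, class bounds, libraries and the replicate block.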

Additional observations from a re-analysis of the deposited data

Results flagged for a closer look

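The change of Nop56 with MHY was 1.04 ± 0.27 (log2, SE) larger at 48 h than at 24 h, and limma's test of that difference over 4116 genes gave an adjusted p of 0.0369. All MHY values were below DMSO at 24 h and above it at 48 h. The call for the difference was lost without some single libraries and under the other settings given with Nop56 above. Time and sequencing run cannot be told apart.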

How the results depend on the processing

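Of 248 alternatives to the 16 counts of called members, 233 left the count within 1.5 times. Of these, 183 were for the tail fits, whose 12 counts were all 0 and stayed at 0, which says nothing of their stability. The read counts at 24 h and between the times were also 0 and stayed at 0. All 15 departures fell on the read counts at 48 h and for the difference of the effects, the only counts above 0. Of the 2 members called in reads at 48 h, 1 was left at a barcode confidence of at least 0.9 or with the 4 libraries of 48 h alone, 0 with limma trend, and 0 to 2 without single libraries. The 1 member called for the difference of the effects gave 0 at a mapping quality of at least 10, at that barcode confidence, with no filter on low counts and with limma trend, and 0 to 1 without single libraries. The cause was not tested.

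For the members as a set, the difference in their share of reads was -0.0487 points at 24 h and 0.0774 at 48 h without Npm1 and Ncl, and 0.0186 at 48 h at the barcode minimum. The median tail differed by -3.43 nt at 24 h within the third run of that time, and by -2.86 nt at 48 h with each gene counted equally. The <30-nt share at 24 h differed by -1.14 points within the second run, 0.409 within the third and -1.02 with each gene counted equally. The 30 to 90 nt share at 48 h differed by 0.322 points without Npm1 and Ncl and 1.01 with each gene counted equally.

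The shared library numbers gave correlations of 0.0189 at 24 h and 0.139 at 48 h over 1949 genes, from 2 pairs at each time, and were not taken as a pairing. With the replicate block Nop56 changed by 0.60 at 48 h (adjusted p 0.028) and Npm1 by -0.33 (adjusted p 0.000154), and no call was lost.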
